A study of Mus musculus with 32 samples.

Results

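The artificial extrinsic compartment of tendon assembloids was sequenced in 12 libraries, taken at day 7 from collagen hydrogels around tail tendon cores labelled KO (n = 6) or WT (n = 6), out of 32 libraries in the series. They were chosen by their titles, which name the hydrogel and the core, and paired by the run code (150, 152 or 154) and the N code that each title carries. The cells seeded into every hydrogel were plastic-adherent fibroblasts from digested Achilles tendons, pooled from 6 mice and labelled Il-6+/+ in both groups, so that by the labels the groups differ in the genotype of the core. A core labelled KO came from a mouse homozygous for the Il6 deletion of the B6.129S2-Il6tm1Kopf/J strain, a WT core from the same strain with an intact gene, in each case from 1 animal of either sex aged 12 to 15 weeks. Each library pooled 2 hydrogels and also held the cells that had left the core by day 7, in a medium with macrophage colony-stimulating factor. The comparison asks what the extrinsic compartment expresses when the core it surrounds carries the Il6 deletion.

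Interleukin-6 is a cytokine that stromal cells and macrophages release in injured tissue. It binds its receptor, encoded by Il6ra, which then joins the shared chain gp130, encoded by Il6st, and the complex signals through Janus kinases and the transcription factor STAT3. Targets of this pathway include the feedback inhibitor Socs3 and acute phase proteins such as the serum amyloids. In tendon, extrinsic fibroblasts of the paratenon surround the load-bearing core and take part in its repair.

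Depth was 26132881 to 50228818 estimated counts around cores labelled KO and 25072166 to 59860703 around WT cores. Levels are given in CPM, which sets each count against its library's total after correction with the trimmed mean of M values. Genes were compared with the quasi-likelihood test of edgeR with the 6 pairs as a block, and fold changes are KO over WT. A gene was counted as called when its unadjusted p was under 0.05 and its log2 fold change was beyond 0.5. The p-values measure the spread between these libraries, whose seeded cells were a pool of mice while each core came from its own mouse.

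Il6 itself was counted in all 12 libraries and was not lower around cores labelled KO. Its lowest, median and highest levels were 5.36, 11.9 and 37.6 CPM around cores labelled KO, and 4.26, 7.70 and 9.61 CPM around WT cores. The KO library was the higher one in 5 of the 6 pairs, and pair 5 went the other way, so that the groups overlapped. The log2 fold change was 0.76 with a standard error of 0.30 and an unadjusted p of 0.0346 from edgeR, while an exact sign-flip permutation test over the 6 pair differences (two-sided) gave p = 0.0938. The call was lost without pair 1, 3, 4 or 6. Il6 was also read in the 8 core libraries of assembloids with fibroblasts. It made up 10.6, 15.5, 18.4 and 35.1 CPM of the library total in cores labelled KO. In cores labelled WT it made up 5.93, 12.3, 4.88 and 8.91 CPM. The cell-free cores, which had no seeded cells around them, were not read for Il6. A count per gene does not show from which part of the gene the reads came, and the seeded cells carry an intact Il6, so the libraries are called labelled KO here. Of the 20 protein-coding genes nearest to Il6 in RefSeq order, 11 were tested, and Tyms, the next gene in that order, was the 1 with an unadjusted p under 0.05 (log2 fold change 0.34, higher in 5 of 6 pairs).

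The hydrogels held abundant transcripts of 2 cell types. Fibroblast collagens were abundant, with Col1a2 at 5720 to 25740 CPM around cores labelled KO and 8183 to 17840 CPM around WT cores, and the tendon gene Tnmd was counted in every library. Macrophage transcripts were abundant as well, although the labels name tendon cells alone. Lyz2, a lysozyme of myeloid cells, was at 1443, 9778 and 20260 CPM (lowest, median, highest) around cores labelled KO and at 6200, 9846 and 11530 CPM around WT cores. The lowest value was that of KO replicate 5 and the highest that of KO replicate 1, and the other 10 libraries lay between 6200 and 12150 CPM. Markers of other cell types were counted too. The 10 Schwann cell markers summed to 427 to 528 CPM around cores labelled KO and 440 to 611 CPM around WT cores. In the same order, the 18 chondrocyte markers summed to 747 to 2407 and 770 to 1789 CPM. The 11 smooth muscle and pericyte markers summed to 163.7 to 341.7 and 223.5 to 332.2 CPM. The 12 endothelial markers summed to 18.1 to 46.2 CPM around cores labelled KO and 19.3 to 41.1 CPM around WT cores. Pecam1, Cldn5, Tie1 and Emcn stayed under 1 CPM in every library, while Kdr reached 31.6 CPM around cores labelled KO and 28.4 CPM around WT cores. The 8 adipocyte markers summed to 9.70 to 45.9 CPM around cores labelled KO and 16.4 to 28.5 CPM around WT cores, with Adipoq under 1 CPM and Fabp4 up to 44.7 and 25.6 CPM. The 7 erythroid and platelet markers summed to 6.96 to 105.5 CPM around cores labelled KO and 15.7 to 24.3 CPM around WT cores, of which Hbb-bs and Hba-a1 stayed under 1 CPM and the platelet gene Pf4 reached 104.7 and 22.9 CPM. In a bulk library, fewer cells of a type and less RNA per cell cannot be told apart.

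Across all 15227 genes tested, 88 were called higher around cores labelled KO (0.578%), 124 were called lower (0.814%) and 15015 were not called. At an unadjusted p under 0.05 with no fold change threshold there were 788 genes (5.18%), 379 higher (2.49%) and 409 lower (2.69%). None passed a Benjamini-Hochberg adjusted p under 0.05 in edgeR, where the lowest adjusted p was 0.858, while DESeq2 with the same pairs passed 9 genes. The count of called genes was 212 in all (1.39%), 428 without pair 5 and 125 without pair 6, and 115 when the pairing was ignored. Of those 115, 77 were higher and 38 lower, so the direction with more calls depended on the pairing. Of the 212, 48 stayed called whichever pair was left out, 27 of them higher and 21 lower. A gene had the same direction in all 6 pairs in 563 cases (3.7%), 288 of them higher (1.89%) and 275 lower (1.81%). With signs set by chance alone, a share of 0.03125 would have the same direction in all 6 pairs. Over all genes the median log2 fold change was −0.03 and 41.2% were above 0, which is the background for the gene lists.

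**Figure D1:**
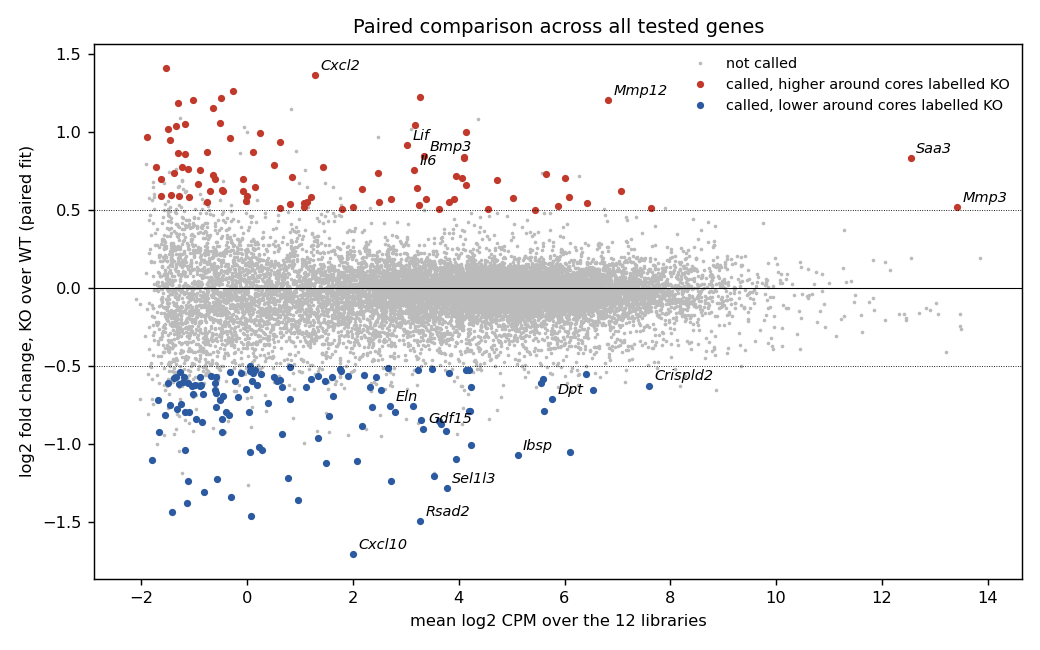
Each point is 1 of the 15227 tested genes, placed by its mean log2 CPM over the 12 hydrogel libraries (x axis) and its log2 fold change, KO over WT, from the paired fit (y axis), with dotted lines at 0.5 on either side of 0. The 88 red points were called higher and the 124 blue points lower around cores labelled KO, and 117 of the 212 lie under a mean log2 CPM of 1, while Saa3 and Mmp3 lie far to the right.

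With a mean log2 CPM of at least 1, 11 named genes were called higher in all 6 pairs. Bmp3, a bone morphogenetic protein that opposes osteogenic members of its family, had the lowest p of all genes. It was at 7.37, 13.4 and 35.9 CPM (lowest, median, highest) around cores labelled KO and at 4.24, 7.99 and 17.1 CPM around WT cores. The groups overlapped, and each KO library lay above its own partner, which was a condition for entry to these 11 genes. The log2 ratio was 0.84, KO over WT, with a standard error of 0.11 and an unadjusted p of 8.61e-05 from edgeR. Slco2a1, a prostaglandin transporter, was at 5.45, 6.15 and 10.7 CPM around cores labelled KO and at 3.19, 4.16 and 5.77 CPM around WT cores. The log2 fold change came to 0.74 (standard error, SE, 0.13), and of the WT libraries only replicates 3 and 5 reached into the range of the KO libraries.

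Saa3, an inflammation-induced serum amyloid made outside the liver in mice, was one of the most abundant transcripts of the hydrogel. Its level was 5009, 8515 and 13850 CPM around cores labelled KO and 3388, 4424 and 6551 CPM around WT cores, which is 0.83 on the log2 scale (SE 0.17, unadjusted p of 0.00125). The difference was smallest in pair 2, with 0.16 on the log2 scale, and largest in pair 3 with 1.26. Rarres2, which encodes the chemoattractant chemerin, had a log2 fold change of 0.84 (SE 0.21) and differed by 1.74 in pair 1 but by 0.10 in pair 5. Mmp12, the macrophage metalloelastase, was at 82.6, 146 and 550 CPM around cores labelled KO and at 54.6, 71.8 and 123 CPM around WT cores (log2 fold change 1.20, SE 0.30). Its pair difference was 0.04 in pair 5 and 0.84 to 2.76 in the others. The calls of these 5 genes held whichever pair was left out.

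The remaining 6 of the named genes that were higher in every pair depended more on single pairs. The fibroblast surface sialomucin Cd34 had a log2 fold change of 0.58 (SE 0.15), and Lrrc61 one of 0.55 (SE 0.14). The cystine transporter Slc7a11 had 0.73 (SE 0.26), with 2.15 in pair 1 and at most 1.08 in the others. The EGF receptor ligand Ereg had 0.66 (SE 0.24) and Rnd1 0.57 (SE 0.20), both with their largest difference in pair 6. Aldh1a2, an enzyme of retinoic acid synthesis, had 0.52 (SE 0.21) and 1.73 in pair 3. Lrrc61 lost its call without pair 1, Cd34 without pair 6, Rnd1 without pair 3 or 6, Slc7a11 without pair 1 or 6, Ereg without pair 1, 4 or 6, and Aldh1a2 without pair 2, 3 or 6. Ignoring the pairing, Bmp3 and Aldh1a2 were not called (unadjusted p of 0.0642 and 0.156).

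Of the named genes called lower in all 6 pairs with a mean log2 CPM of at least 1, the 12 with the lowest p are described here. Outside these 12 was Adamts15, given below with the proteases. The lowest p was that of Gdf15, a stress-induced cytokine of the TGF-beta superfamily. It was at 4.53, 6.99 and 14.8 CPM around cores labelled KO and at 8.13, 13.8 and 23.5 CPM around WT cores, a log2 fold change of −0.90 (SE 0.18, p of 0.00099 before adjustment). KO replicate 4, at 14.8 CPM, was the 1 library labelled KO above the WT median. Eln, which encodes elastin, was at 3.41, 4.81 and 8.93 CPM around cores labelled KO and at 4.39, 6.87 and 21.2 CPM around WT cores. Its differences were −1.44 and −1.24 in pairs 1 and 2 and −1.18 in pair 6, against −0.13 to −0.22 in the other 3 pairs. Crispld2, a secreted protein, showed a like order with −1.74 and −1.08 in pairs 1 and 2, and lost its call without either of them.

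Among these 12 genes, Sel1l3 had the largest fold change, carried by a different set of pairs. It was at 1.96, 8.24 and 28.7 CPM around cores labelled KO and at 14.5, 24.4 and 30.6 CPM around WT cores, a log2 fold change of −1.28 (SE 0.35). Its differences were −0.09 and −0.35 in pairs 1 and 2 and −1.29 to −2.99 in pairs 3 to 6. The myeloid lectin Clec4a1 (−0.85, standard error 0.31) and the nucleoside transporter Slc28a2 (−0.91, standard error 0.35) likewise had their largest differences in pair 5, with −2.74 and −2.99. Ifi207, an interferon-inducible gene of the Ifi200 family, had a log2 fold change of −0.79 (SE 0.24). The others were Clca3a2, the endocytic adaptor Ston2, the semaphorin Sema3g, Mab21l2 and Pcp4l1, with log2 fold changes of −0.53 to −0.79. Without the pairing, Gdf15, Sema3g, Eln and Crispld2 were still called among these 12 genes. With 1 pair left out, calls were lost by Clca3a2 (pair 2 or 4), Sema3g and Pcp4l1 (pair 2), Mab21l2 (pair 1), Clec4a1 (pair 4 or 6) and Slc28a2 (pair 3 or 6).

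**Figure D2:**
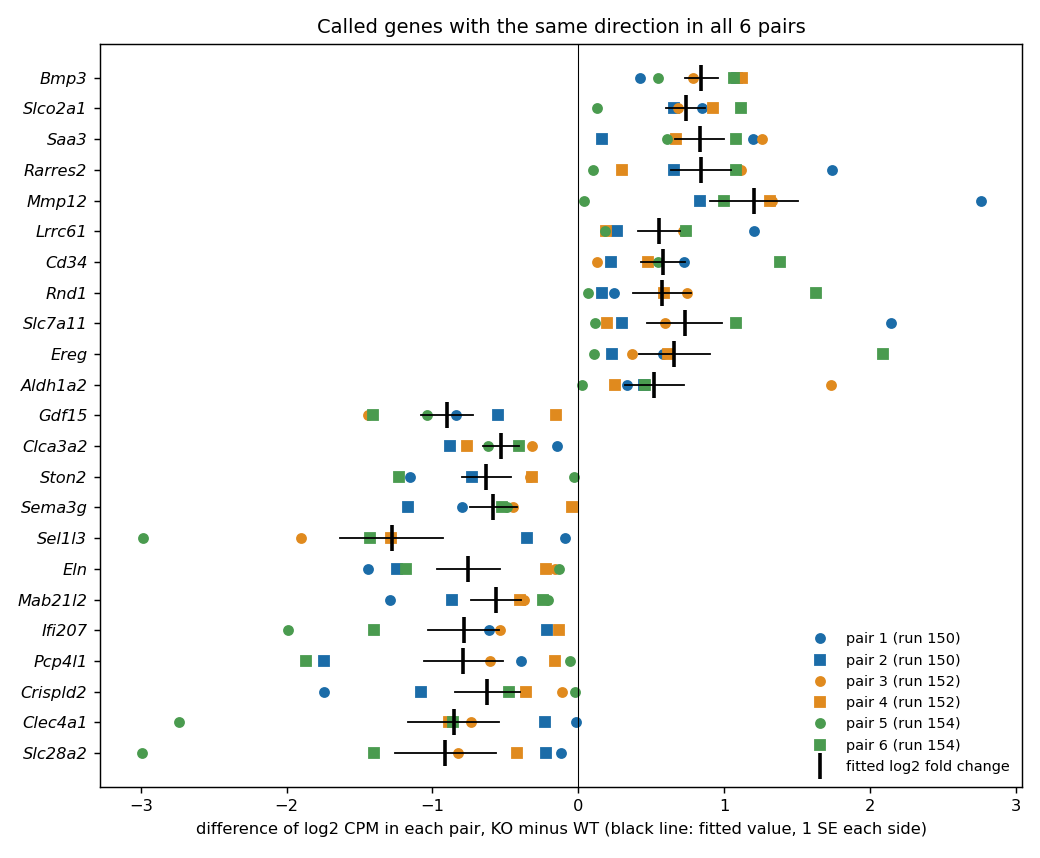
Shown are the leading named genes by p among those called in the paired fit with 1 direction in all 6 pairs. Each dot is the difference of log2 CPM in 1 pair, KO minus WT (x axis), coloured by run. The black mark is the fitted log2 fold change with 1 standard error on each side. For Bmp3 all 6 dots lie between 0.43 and 1.12, while Mmp12 spreads to 2.76 and Sel1l3 to −2.99.

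Of the 7 IL-6 family ligands on the list, Il6 and Lif were the 2 called. Ctf2, a further ligand of the family, was not on the list and was called lower (−0.57, SE 0.23). It was lower in all 6 pairs, at 0.15 to 0.51 CPM around cores labelled KO and 0.30 to 0.58 CPM around WT cores. Its call stayed without only 2 of the 6 pairs, and it was named after its value was seen. Lif, leukemia inhibitory factor, was at 3.95, 13.0 and 24.4 CPM around cores labelled KO and at 3.08, 6.74 and 8.67 CPM around WT cores. Its log2 fold change was 0.92 (SE 0.33, unadjusted p of 0.0244), with 0.90 to 1.90 in 5 pairs and −1.03 in pair 5. The call was lost without any 1 of pairs 1, 2, 3, 4 or 6. Il11, Osm, Ctf1, Clcf1 and Cntf were not called, with log2 fold changes of −0.14 to 0.09. Of 7 receptor genes of the family 0 were called and 6 were lower, with a median of −0.14 beside −0.03 over all genes. The shared chain Il6st had a log2 fold change of −0.03 (SE 0.13) and Il6ra −0.32 (SE 0.23). The receptor list had medians of −0.53 and −0.39 in pairs 1 and 2 and of 0.37 in pair 5.

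Genes downstream of these receptors did not move one way. Of 12 genes of JAK and STAT signaling 11 were lower, none was called, and Stat5b (−0.18, standard error 0.05) was the 1 with an unadjusted p under 0.05. The medians of this list were −0.49 in pair 5 and −0.18 in pair 6, and −0.05 to 0.03 in pairs 1 to 4. Of 20 STAT3 feedback and acute phase genes 14 were higher, with a median of 0.09 and 3 called, namely Saa3 and the metallothioneins Mt1 and Mt2, which bind metals. The feedback inhibitor Socs3 was not called. It was at 84.3, 137 and 191 CPM (lowest, median, highest) around cores labelled KO and at 105, 129 and 161 CPM around WT cores. Il4ra, a receptor chain for IL-4 and IL-13, had a log2 fold change of −0.27 (SE 0.08) and was lower in all 6 pairs. Saa1 and Saa2 were not on this list and were called with 0.83 and 0.71, but stayed called without only 3 and 2 of the 6 pairs, and they were named after their values were seen. The metallothionein calls were lost without pair 1, 3, 4 or 6.

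Chemokines that attract neutrophils were listed together with Ccl20. All 6 measured members of this list were higher around cores labelled KO, with a median log2 fold change of 0.72. The 2 called were Cxcl2 and Ccl20. Cxcl2 was at 1.54, 3.42 and 13.6 CPM around cores labelled KO and at 0.86, 1.58 and 2.12 CPM around WT cores, with a log2 fold change of 1.36 (SE 0.38). Ccl20 was at 1.43 to 3.48 CPM around cores labelled KO and at 0.76 to 1.32 CPM around WT cores, so that no library overlapped between the groups, and had 0.79 (SE 0.19). Ptgs2, the inducible cyclooxygenase, had 0.71 (SE 0.22) and stromelysin Mmp3 0.52 (SE 0.19), each higher in 5 of 6 pairs. The call of Ptgs2 was lost without pair 6 and that of Mmp3 without pair 1, 3, 4 or 6. In the prostaglandin pathway, Ptgs1, Ptges and Ptgis had log2 fold changes of 0.38, 0.43 and 0.46, below the threshold, each with an unadjusted p under 0.05.

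Monocyte chemokines did not share this direction, with 4 of 11 higher and 7 lower. Ccl5 was called higher (0.50, SE 0.20) and lost its call without pair 1, 3, 4 or 6, and Ccl8 was called lower (−0.79, SE 0.28) and lost it without pair 2 or 4. The list median of −0.10 turned positive, to 0.06 at most, without pair 2 or 5. Ccl12 had −3.47 in pair 5 and −0.57 to 0.12 in the other pairs. Of 23 NF-kB and inflammation genes 18 were higher, with a median of 0.07 and 1 called. The list medians of pair 5 were −0.41 for neutrophil chemokines with Ccl20, −1.60 for monocyte chemokines and −0.63 for NF-kB genes. Pair 6 had 1.88, 0.02 and 0.23.

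**Figure D3:**
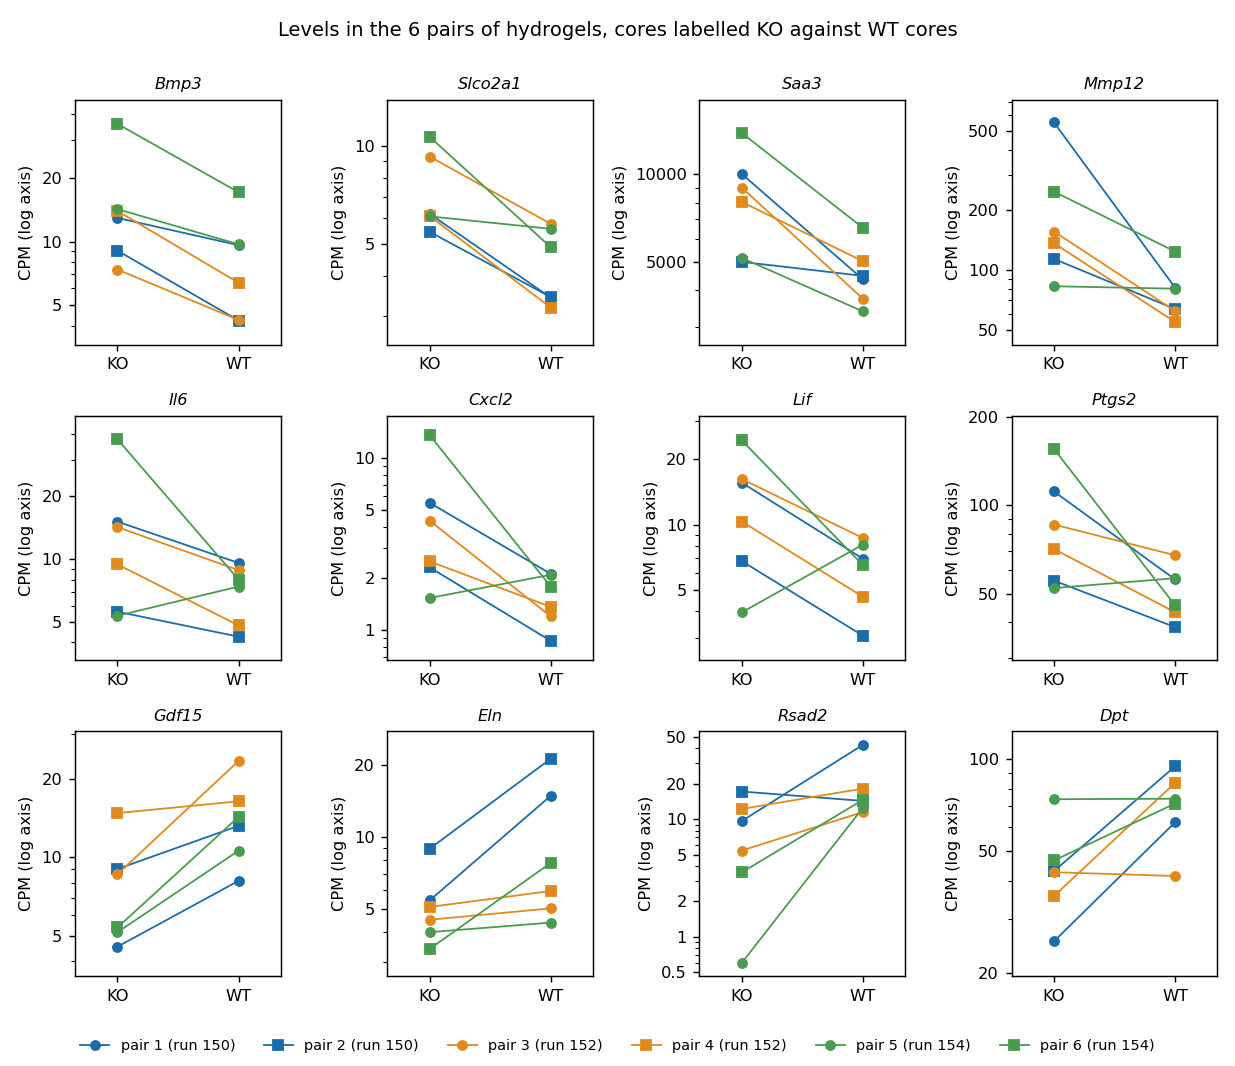
CPM on a log axis (y) for 12 genes in the 6 pairs of hydrogel libraries, with the library labelled KO on the left and its WT partner on the right of each line, coloured by run. Lines of Bmp3, Slco2a1, Saa3 and Mmp12 are higher at KO than at WT in all pairs, while for Il6, Cxcl2, Lif and Ptgs2 the line of pair 5 runs the other way.

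Interferon-stimulated genes, which encode antiviral proteins, were lower around cores labelled KO for 38 of 39 members, with a median log2 fold change of −0.46 and 5 called (Rsad2, Mx1, Cmpk2, Mx2 and Ifit1). Rsad2, which encodes the antiviral enzyme viperin, was at 0.60, 7.53 and 17.2 CPM around cores labelled KO and at 11.5, 14.5 and 42.9 CPM around WT cores. Its log2 fold change was −1.49 (SE 0.50), and it ran from −4.26 in pair 5 to 0.26 in pair 2. Mx1 had −1.46 and Cmpk2 −1.24. Ifit1 (−1.0046) was called without 2 of the 6 pairs alone, as was the interferon-induced chemokine Cxcl10 (−1.70), which was not on the list and was named after its value was seen. The list as a whole was lower in pairs 1, 3, 5 and 6 (medians −0.59, −0.40, −1.76 and −0.91) and higher in pairs 2 and 4 (0.65 and 0.18). Rsad2 and Mx1 lost their call without pair 1 or 6, Cmpk2 without pair 1, 3, 5 or 6, and Mx2 (−0.93) without pair 1, 5 or 6. Ignoring the pairing, Mx1 and Mx2 were the 2 of the 5 still called. Summed over 40 genes, the level was 776 CPM in KO replicate 5, which was also lowest in macrophage transcripts, and 1067 to 2043 CPM in the other libraries labelled KO, against 1276 to 1910 CPM around WT cores. The part of the macrophage transcripts in this difference was not tested.

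Short stretches before the start of called genes from both directions are shown, picked because each holds a match to a known regulatory motif. They are from RefSeq on GRCm38.p6, 30 bases each, 5′ to 3′ on the strand of the gene, with capitals at a match to the kappa B motif in genes called higher and to the core of the interferon-stimulated response element in genes called lower. On the element's own strand that core reads GAAA, any 2 bases and GAAA again, and a match on the other strand reads TTTC, any 2 bases and TTTC.
Il6, chr5:30013060-30013089, plus strand: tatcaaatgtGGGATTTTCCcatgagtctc
Cxcl2, chr5:90903792-90903821, plus strand: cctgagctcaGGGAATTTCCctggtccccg
Ccl20, chr1:83116676-83116705, plus strand: aatcaatgggGGAAAACCCCgggtgagaac
Tnfrsf9, chr4:150927946-150927975, plus strand: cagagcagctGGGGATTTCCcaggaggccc
Rsad2, chr12:26456553-26456582, minus strand: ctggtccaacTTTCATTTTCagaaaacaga
Ifit1, chr19:34640794-34640823, plus strand: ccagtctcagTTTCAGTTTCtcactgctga
Cxcl10, chr5:92349083-92349112, minus strand: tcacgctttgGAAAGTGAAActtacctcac
Ifi207, chr1:173741831-173741860, minus strand: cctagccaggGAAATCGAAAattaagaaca

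Both strands of the 250 bases before each start were searched. The response element core was found for 39.3% of 28 interferon-stimulated genes with a sequence, and for 3.3% of 10938 tested genes. It was found for 3.33% of 60 genes called higher and 9.52% of 84 called lower. Saa3, which was called higher, held this core, while no match was found for the called Mx1, Mx2 and Cmpk2. The kappa B motif was found for 16.7% of the genes called higher, 15.5% of those called lower and 10.8% of all, and Cxcl10, which was called lower, held both motifs. In Cxcl2 and Tnfrsf9 a second kappa B match overlapped the one shown, shifted by 1 base. Tnfrsf9, a receptor of activated immune cells, had a log2 fold change of 1.23, stayed called without 1 of the 6 pairs alone and was named after its value was seen.

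Genes of the extracellular matrix (ECM) were lower around cores labelled KO in pairs 1 and 2 and less or not at all in the other pairs. Of 27 proteoglycans and matrix glycoproteins 22 were lower, with a median of −0.19 and 2 called, and the list medians of pairs 3 to 6 lay between −0.12 and 0.24. Dpt, dermatopontin, was at 25.4, 42.9 and 73.9 CPM around cores labelled KO and at 41.5, 72.8 and 94.6 CPM around WT cores, with a log2 fold change of −0.71 (SE 0.21) that held whichever pair was left out. It was lower by 1.13 or more in pairs 1, 2 and 4 and did not differ by more than 0.04 in pairs 3 and 5. Acan, the cartilage proteoglycan aggrecan, had −0.61 (SE 0.20), and its call was lost without pair 1 or 6. The hyaluronan synthase Has2 had −0.39 and periostin (Postn) −0.35, below the threshold.

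Collagens followed the same pairs without reaching a call. Of 25 fibrillar collagen and processing genes 17 were lower (median −0.04, and 0.01 without pair 1), and of 18 non-fibrillar collagens 16 were lower (median −0.23), with 0 called in either. Col1a1 was at 3856, 8063 and 21500 CPM around cores labelled KO and at 6986, 11990 and 16130 CPM around WT cores. Its differences were −1.67 and −0.87 in pairs 1 and 2, −0.20 and −0.04 in pairs 3 and 4, and 0.63 and −0.34 in pairs 5 and 6. KO replicate 1 had the lowest and KO replicate 5 the highest level of all 12 libraries, and they were also the libraries with the most and the least Lyz2. Col6a2, a subunit of collagen VI, and Col14a1 had −0.37 and −0.47. Of 18 ADAMTS and ADAM proteases 13 were lower and 1, Adamts15, was called. Adamts15 was lower in all 6 pairs (−0.57, standard error 0.23) and stayed called without 3 of the 6 pairs. Adam12, a disintegrin and metalloproteinase, was lower in all 6 pairs (−0.38, standard error 0.10). Adamts1 was higher in all 6 (0.27, standard error 0.09), and both were below the fold change threshold.

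The medians of the myofibroblast, osteoblast and chondrocyte lists were also lowest in pairs 1 and 2. Single called genes did not all follow this order, with −2.145 for Ibsp and −1.231 for Sp7 in pair 6 and −1.243 for Cnn1 in pair 3. Of 16 myofibroblast genes 13 were lower (median −0.33), and Cnn1, the smooth muscle protein calponin, was called with −0.79 (SE 0.28), as was the smooth muscle actin Actg2 with −0.57, a call lost without pair 2. Acta2 was at 29.8, 82.4 and 140 CPM around cores labelled KO and at 79.7, 100.5 and 149 CPM around WT cores, and its −0.45 (SE 0.27) was not a call. Of 8 osteoblast genes 6 were lower, and Ibsp, bone sialoprotein, and the transcription factor Sp7 were called with −1.07 and −0.53. Chondrocyte genes had medians of −1.32 and −0.72 in pairs 1 and 2, and of 0.47 in pair 5. The calls of Cnn1, Ibsp and Sp7 were each lost without pair 1 or 6, that of Cnn1 also without pair 3, that of Ibsp without pair 2 and that of Sp7 without either of those.

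Tendon lineage genes were not called in any member. Of 16, 9 were higher and 7 lower, with a median of 0.05 that ran from −0.52 in pair 2 to 0.70 in pair 5 and turned negative without pair 5 or 6 (−0.09 at the lowest). Scx, the tendon transcription factor, was at 5.48, 10.7 and 18.1 CPM around cores labelled KO and at 6.83, 9.25 and 13.2 CPM around WT cores, a log2 fold change of 0.12 (SE 0.18). Mkx had 0.11 (SE 0.17) and Tnmd −0.08 (SE 0.40). Tnmd differed by −1.65 in pair 2 and by 1.68 in pair 5. The proteoglycan decorin (Dcn) was higher in 5 of 6 pairs with 0.37 (SE 0.15). Of the other genes by which the cells were characterized, Pdgfra had −0.05, Mcam −0.14, Thy1 0.16, Ccn2 −0.21 and Spp1 0.20, and none was called.

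Hypoxia response genes were higher for 24 of 29 members, with a median of 0.27 and 2 called, Adm and Bnip3. Adm, the vasodilator peptide adrenomedullin, was at 20.9, 33.8 and 62.2 CPM around cores labelled KO and at 14.9, 21.8 and 26.1 CPM around WT cores, a log2 fold change of 0.69 (SE 0.23). Its call was lost without pair 1 or 6, and Bnip3 (0.55) stayed called without 2 of the 6 pairs alone. Of 18 glycolysis genes 17 were higher (median 0.18) and 0 called, with 0.42 for lactate dehydrogenase Ldha. Hypoxia genes had medians of −0.18 and −0.25 in pairs 4 and 5 and of 0.23 to 0.83 in the others.

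Genes of protein synthesis and of early growth responses lay slightly on the higher side. Of 83 cytosolic ribosomal protein genes 82 were higher, 30 of them at an unadjusted p under 0.05, with a median of 0.15 and 0 called. The pair medians ran from −0.02 in pair 2 to 0.37 in pair 5. Rps14, which had the lowest p among them, had 0.32 (SE 0.07). Of 90 nuclear genes of oxidative phosphorylation 82 were higher (median 0.08), and Cox4i2, a cytochrome c oxidase subunit, was the 1 called, with 0.77, and stayed called without 3 of the 6 pairs. Of 25 immediate early genes, which respond within minutes to growth factors, 21 were higher, 7 of them at an unadjusted p under 0.05, and 1, Ier3, was called with 0.58 and stayed so without 4 of the 6 pairs. Ier2 was higher in all 6 pairs with 0.48 (SE 0.09), just short of the fold change threshold. Dusp1 (0.39), Btg2 (0.29) and Egr2 (0.49) were also higher in all 6 pairs. Of 9 Schwann cell genes 9 were lower, 3 of them at an unadjusted p under 0.05, led by Erbb3 and Ngfr, each with −0.24.

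Macrophage and cell cycle genes differed most in pair 5. Of 24 macrophage and leukocyte markers 23 were lower and 0 were called, with a median of −0.39, and their pair medians were 0.60, 0.16, −0.11, −0.32, −2.24 and −0.48. The summed level was 2445, 16070 and 35310 CPM (lowest, median, highest) around cores labelled KO and 11120, 17360 and 21060 CPM around WT cores. Without pair 5 the list median was −0.04. Of 40 cell cycle genes 38 were lower, with a median of −0.16, and with −1.01 in pair 5 and −0.48 in pair 6 against −0.13 to 0.31 in the other 4 pairs, and its median without pair 5 was 0.007. Mki67 was at 65.8, 116 and 245 CPM around cores labelled KO and at 98.2, 181 and 269 CPM around WT cores, with −0.46 (SE 0.26).

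**Figure D4:**
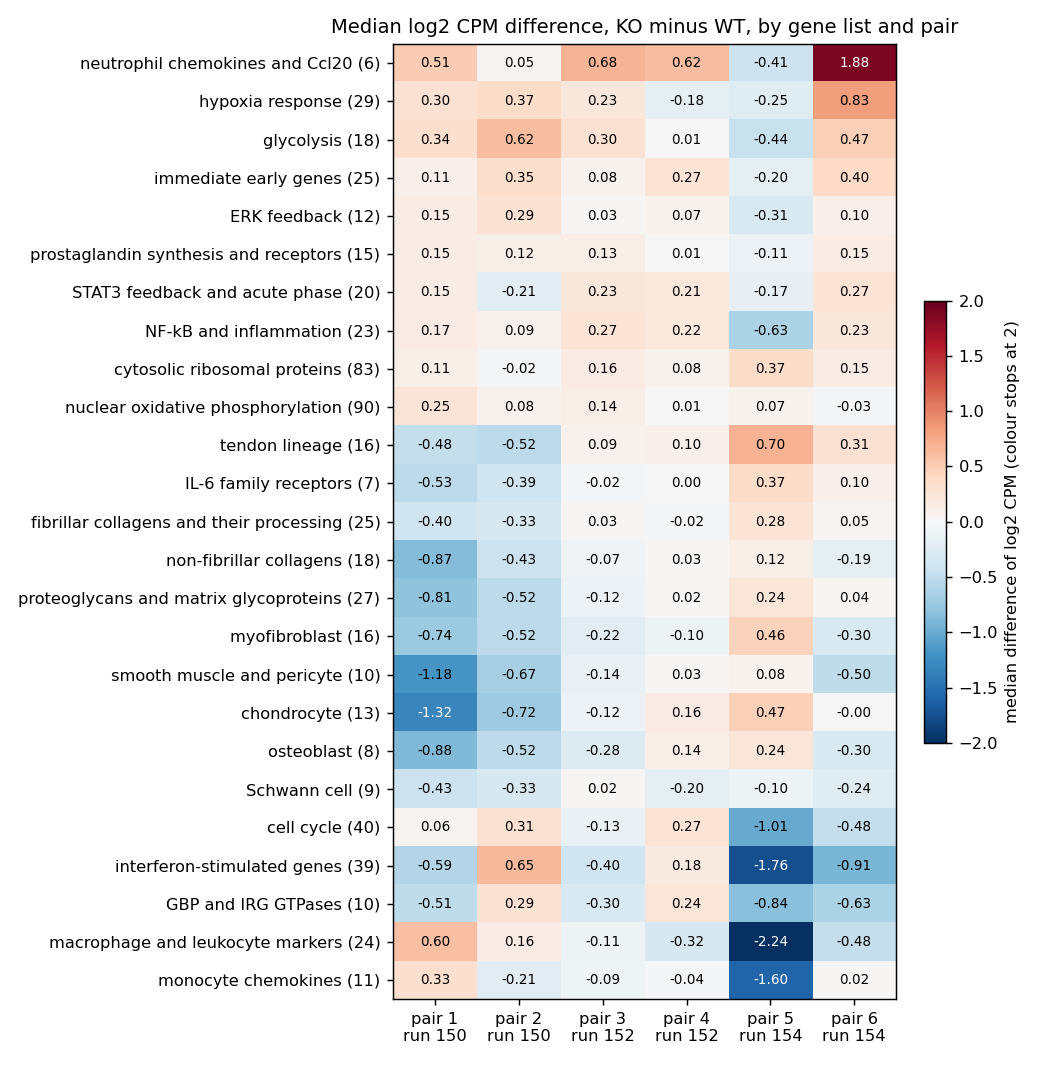
Median difference of log2 CPM, KO minus WT, over the members of 25 gene lists (rows, with the number of members tested) in each of the 6 pairs (columns), printed in each cell and coloured from blue (lower around the core labelled KO) to red (higher). Matrix and skeletal lists are lowest in pairs 1 and 2 and macrophage and interferon lists in pair 5. The list of neutrophil chemokines and Ccl20 is highest in pair 6 with 1.88.

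A difference was also estimated for each of the 3 runs, since the list medians differed by pair. This was a joint fit of all 12 libraries, chosen after seeing the data, in which the runs shared their estimate of spread. In it, 1121 genes were called in run 150 (984 of them lower), 94 in run 152 (34 of them lower) and 1702 in run 154 (1310 of them lower). Of the 15227 genes tested, 13.7%, 1.33% and 22.1% had an unadjusted p under 0.05 in these edgeR tests. None passed an adjusted p under 0.05 in any run, with 0.1969, 0.9997 and 0.1295 as the lowest. Each run held only the pairs of N codes 1 and 2. The test that the 3 differences are unequal passed an unadjusted p under 0.05 for 2673 genes (17.6%) in edgeR and an adjusted p under 0.05 for 0, with 0.264 as the lowest adjusted p. DESeq2 was not run on it. Over genes, the spread of the pair differences was 0.66 in pair 5 and 0.51 in pair 1, and 0.30 to 0.42 in the other 4 (SD of log2 CPM differences).

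Transcripts of the Y chromosome differed between libraries within the pairs. Summed over Ddx3y and 3 other Y-linked genes, the level was 15.9, 101 and 184 CPM (lowest, median, highest) around cores labelled KO and 18.6, 91.0 and 147 CPM around WT cores. The library labelled KO was the higher one by a median of 3.28 in pair 1 and 1.88 in pair 3, and the lower one by 1.73 in pair 4 and 1.43 in pair 5. With the mean level of these genes as a covariate beside the pairs, chosen after seeing the data, 242 genes were called, 81 higher and 161 lower, and Bmp3 kept a log2 fold change of 0.87.

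**Figure D5:**
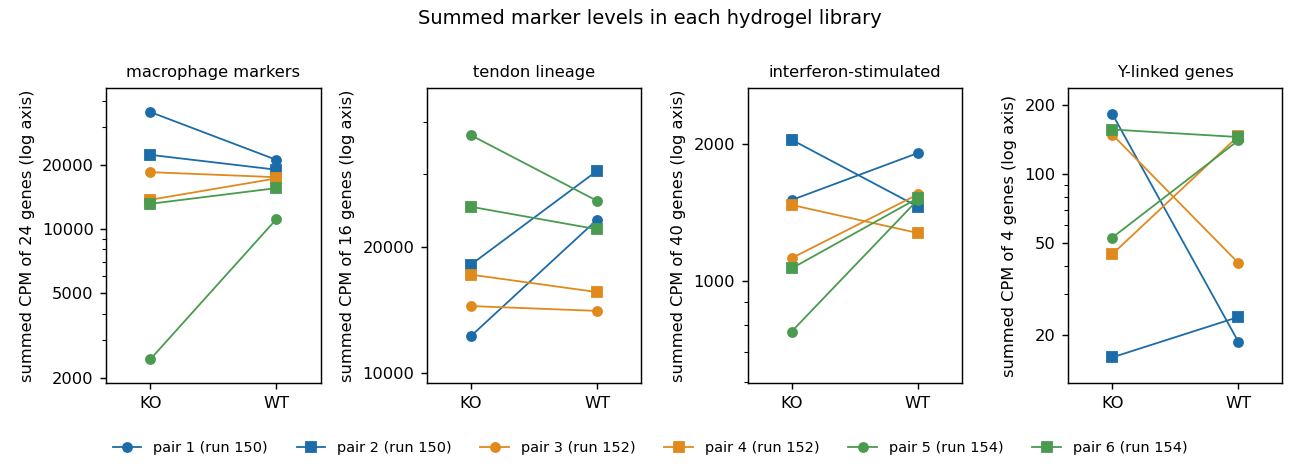
Summed CPM on a log axis (y) over 4 gene lists in the 6 pairs of hydrogel libraries, with the library labelled KO left of its WT partner. Macrophage markers reach 2445 CPM in KO replicate 5 and 11120 CPM or more around all WT cores, and Y-linked genes cross in both directions.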

How the data were processed

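Total RNA of the 12 hydrogel libraries had been depleted of ribosomal RNA and sequenced with a stranded protocol. Kallisto (0.46.1) and GRCm39 are named in the submitters' processing notes, and the release of the annotation was not stated there. The values the authors deposited are estimated counts per gene, rounded to whole numbers without normalization, for 25700 genes, of which 25587 were matched by gene ID to a symbol in a separate name table. Promoter sequences and the order of genes were taken from RefSeq on GRCm38.p6.

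After filterByExpr and TMM scaling, edgeR 4.0.16 (under R 4.3.3) fitted a quasi-likelihood model with the replicate number as a block, and calls used the thresholds of the study's own methods. The numbers were taken as pairs because same-numbered libraries share a run and N code. Their deviations from the group means correlated at 0.26 to 0.60 in the 6 pairs, which does not separate a shared N code from a shared run. In 4 of the 6 pairs the library labelled KO correlated best with its own partner, and in pairs 2 and 6 with the other WT library of its run. Each standard error (SE) comes from the log2 fold change and the F statistic of its test. Log2 CPM used a prior count of 2. The shallowest library held 25072166 counts. No 2 libraries of a group agreed within counting noise. The exact sign-flip permutation test over 6 pairs is two-sided and cannot go below 0.0312, the value of each gene with 1 direction in all pairs.

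Members and gene lists were chosen with earlier results of these data known. The genes named were up to 12 higher and 12 lower with the lowest p among those called in all 6 pairs with a mean log2 CPM of at least 1 and a proper name, the IL-6 family, the genes by which the study characterized its cells, up to 4 members of each list by lowest p, and genes named earlier. Cell type markers and the called members of a list outside this rule (Ifit1, Ier3, Bnip3, Cox4i2 and Adamts15) were named after their values were seen. Lists are described by counts and medians without a test. Alternatives were no pairing, the run code as a block, DESeq2 (version 1.42.0) with and without the pairs, RLE, other filters and thresholds, and each pair left out. The 8 core libraries of assembloids with fibroblasts were used for Il6 alone, and the other libraries were not used here.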

Additional observations from a re-analysis of the deposited data

Results flagged for a closer look

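Mean log2 CPM per library was examined for 47 gene lists in the 6 libraries of each group, and a library was taken as far from the others when its gap to the nearest, over the range of its group, was above the 95% critical value of Dixon's test. Chance alone gives about 1 in 20 such groups, and 5 of 94 were found. KO replicate 5 was lowest of its group in NF-kB and inflammation genes (gap over range 0.663, mean log2 CPM of 4.62 against 5.47 to 5.90 in the other libraries labelled KO), in ERK feedback genes (0.722, 4.18 against 4.74 to 4.96) and in prostaglandin genes (0.627, 4.13 against 4.59 to 4.86). KO replicate 1 was lowest in genes of the IGF axis (0.649, 6.47 against 7.05 to 7.36). WT replicate 1 was lowest of the WT libraries in Wnt and TGF-beta genes (0.713, 4.14 against 4.31 to 4.38). The same measure on single named genes found 20 of 400 groups, 7 of them in KO replicate 5.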

How the results depend on the processing

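The paired count of 212 called genes was 115 with no replicate block and 141 with DESeq2 and no replicate block, 325 with no filter on low counts, 788 with no fold change threshold and 47 at an unadjusted p under 0.01, and 125 to 428 with 1 pair left out. Genes called higher (88 in the paired fit) numbered 77 and 95 with no replicate block (edgeR and DESeq2). They numbered 379 with no fold change threshold, 29 at the stricter p and 45 to 158 with 1 pair left out. Genes called lower (124) numbered 38 and 46 in the 2 fits with no replicate block (edgeR and DESeq2), 206 with no filter, 80 with at least 10 counts in every library, 409 with no fold change threshold, 18 at the stricter p and 80 to 270 with 1 pair left out. At an adjusted p under 0.05, edgeR gave 0 in every fit, 788 genes being under an unadjusted 0.05, while DESeq2 gave 9 with the replicate block (Bmp3, Saa3, Slco2a1, Gdf15, Ier2, Mmp12, Tslp, U90926 and Fam126a) and 1 without it (Ier2). Of the 46 named genes that were called, 18 were not called with no replicate block, 22 not without pair 1, 24 not without pair 6 and 3 not without pair 5, while leaving out pair 5 added 25 named genes to the calls, and none changed direction in any alternative. The causes were not tested. Genes near 1 CPM rest on about 25 counts in the shallowest library.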
